A study of Mus musculus and Macaca mulatta with 39 samples.

Results

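Sox2 and Sox9 encode transcription factors of radial glia, the stem cells of the embryonic cortex, and the chromatin around both genes was followed in mouse cortex through the regions called for H3K27ac and H3K4me2. Members were chosen by position on mm9: all regions overlapping a 270 kb window on chromosome 3 that holds Sox2 (chr3:34450001-34720000, with the gene at about chr3:34549000-34551400) and all regions overlapping a 140 kb window on chromosome 11 around Sox9 (chr11:112580001-112720000). They numbered 354 regions, 228 in the Sox2 window and 126 in the Sox9 window, of 921935 regions in 16 mouse lists. The tissue was whole embryonic cortex of strain C57BL6J at E11.5 (embryonic day 11.5) and E14.5, and the frontal and the occipital cortex at E17.5. Each of these 4 tissues had 2 biological replicates, and each replicate gave a list for each of the 2 marks. No treatment or genetic change is labelled, and rhesus lists of the same series were not used here.

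H3K27ac, acetylation of lysine 27 of histone H3, marks active promoters and enhancers, and H3K4me2, dimethylation of lysine 4, marks promoters and enhancers whether fully active or poised. Sox2 is a factor of the SoxB1 group with an HMG box, the DNA-binding domain that all SOX proteins share. It keeps neural progenitors undifferentiated and is expressed throughout the ventricular zone. Sox9, of the SoxE group, supports the maintenance of neural stem cells and the later start of gliogenesis. Sox2 lies within the long non-coding transcript Sox2ot, and Atp11b and Dnajc19 are the nearest protein-coding genes in the RefSeq gene table (GRCm38.p6). Sox9 is flanked there by the long non-coding genes BC006965 and Gm11681, and the next protein-coding gene after it is Slc39a11, a zinc transporter gene. Cortex is bulk tissue in which radial glia make up a decreasing part of the cells as neurons accumulate. Fewer cells of a type and less of a mark per cell therefore cannot be told apart in any value given here.

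The stretch just upstream of Sox2 is shown because every region that held the gene also covered it: those regions began at least 2224 bp before the gene in each H3K27ac list and at least 12399 bp before it in each H3K4me2 list. The sequence is the 250 bases before the gene's start in RefSeq (GRCm38.p6, chr3:34649745-34649994, plus strand), written 5′ to 3′. The table of promoters had an entry for 1 of the 2 genes, Sox2.
Sox2 promoter: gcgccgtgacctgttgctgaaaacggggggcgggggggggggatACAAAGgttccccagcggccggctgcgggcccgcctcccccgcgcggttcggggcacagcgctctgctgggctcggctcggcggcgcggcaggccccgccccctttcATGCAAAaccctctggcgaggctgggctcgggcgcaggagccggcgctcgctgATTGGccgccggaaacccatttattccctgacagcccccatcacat
Capitals mark matches to 3 short motifs, chosen with the sequence in view and searched on both strands. ACAAAG, the core bound by SOX and TCF factors, stands 206 to 201 bases before the start and was found in 16.5% of the 32851 promoters of the table. ATGCAAA, part of the octamer bound by POU factors, stands 99 to 93 bases before the start and was found in 4.12% of promoters. ATTGG, an inverted CCAAT box, stands 46 to 42 bases before the start and was found in 33.8% of promoters. The sequence is rich in G and C (72% against a median of 52.4% over all promoters) and holds 27 CpG dinucleotides, where the median promoter holds 6 and 91.4% of promoters hold fewer. These matches are descriptions of letters, not of bound sites.

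**Figure D1:**
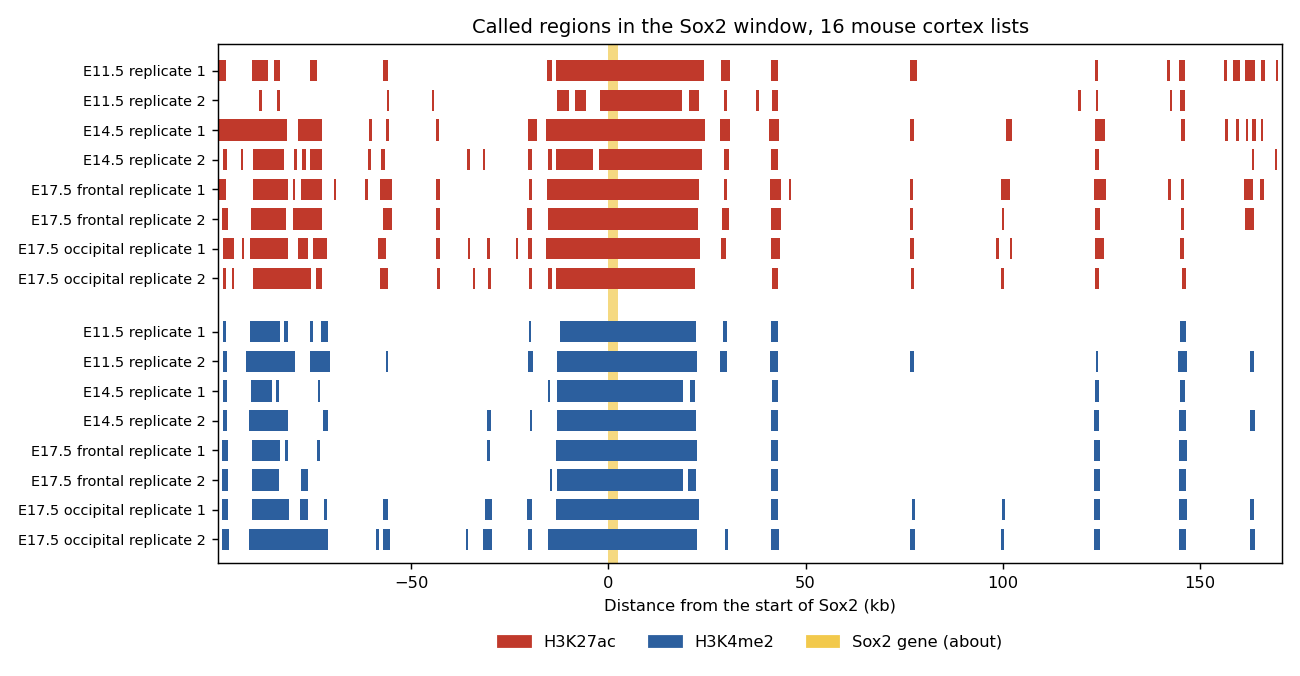
Called regions of the Sox2 window in each of the 16 mouse lists, as bars along the distance from the start of Sox2 in kb (red H3K27ac, blue H3K4me2, yellow band the gene). A broad domain over the gene is present in all 16 lists, and in H3K27ac it is most broken in replicate 2 of E11.5 and of E14.5. A smaller part is separate in E11.5 replicate 1 and occipital replicate 2 for H3K27ac, and in E14.5 replicate 1 and frontal replicate 2 for H3K4me2.

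The lists give positions only, without a count or a score, so the depth behind them is unknown and levels of a mark within a region were not measured. A region was at least 405 bp wide, so a locus in a list is either absent or at least that long. The lists differed in total length, from 63.1 to 169 Mb for H3K27ac and from 65.3 to 162 Mb for H3K4me2. Both E11.5 H3K27ac lists (63.1 to 85.3 Mb) were shorter than all 4 E17.5 H3K27ac lists (129 to 169 Mb), and the occipital H3K4me2 lists (113 and 162 Mb) were longer than the frontal ones (at most 105 Mb). E11.5 H3K27ac replicate 2 had the lowest covered length of the 8 H3K27ac lists in both windows.

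Sox2 itself lay inside a called region in every list of both marks. In all 8 H3K27ac lists a single region held the whole gene, with widths of 20925 to 40225 bp and a median of 37800 bp. In all 8 H3K4me2 lists a single region did so too, with widths of 31825 to 37900 bp and a median of 35375 bp. Few regions of a list were wider. Ranked by width, the Sox2 region stood between places 3 and 39 in the H3K27ac lists, which hold 47631 to 87236 regions, and between places 2 and 12 in the H3K4me2 lists, which hold 32366 to 76833 regions. The domain reached at most 15724 bp before the gene and 22100 bp after it in H3K27ac, and at most 15324 bp before and 20625 bp after it in H3K4me2.

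The length of the Sox2 domain varied little among the tissues. Counting all regions that merge into it over the 8 lists (chr3:34533276-34573500), H3K27ac covered 39000 and 29325 bp at E11.5, 40225 and 36500 bp at E14.5, 38525 and 37875 bp in E17.5 frontal cortex, and 38975 and 36350 bp in E17.5 occipital cortex. E11.5 replicate 2 was the one low list, and the other 7 overlapped. H3K4me2 covered 34550 and 35500 bp at E11.5, 33850 and 35250 bp at E14.5, 35675 and 34325 bp in frontal cortex, and 36400 and 37900 bp in occipital cortex (chr3:34533652-34572025). The stages overlapped, and the occipital lists were the longest. On the log2(covered bp + 200) scale, in a limma fit over all loci of a mark, the domain's difference of E17.5 from E11.5 was 0.16 for H3K27ac (adjusted p = 0.708) and 0.04 for H3K4me2 (adjusted p = 0.862).

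A core of both windows was called in every list. In the Sox2 window, 29924 bp in 7 stretches were called in all 16 lists, of 110926 bp called in at least 1 of them. The longest of these stretches, 20925 bp at chr3:34546776-34567700, held the gene. The others included 2275 and 2875 bp upstream within the domain, and 1375 bp downstream at chr3:34590576-34591950. The far upstream part of the window held 2 more, of 700 and 400 bp. In the Sox9 window, 6725 bp in 2 stretches were called in all 16 lists, of 55373 bp called in at least 1. These were 4875 bp at chr11:112642151-112647025 and 1850 bp at chr11:112671701-112673550. The sources used here do not give the position of Sox9 on mm9, so no stretch of this window was assigned to its promoter.

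**Figure D2:**
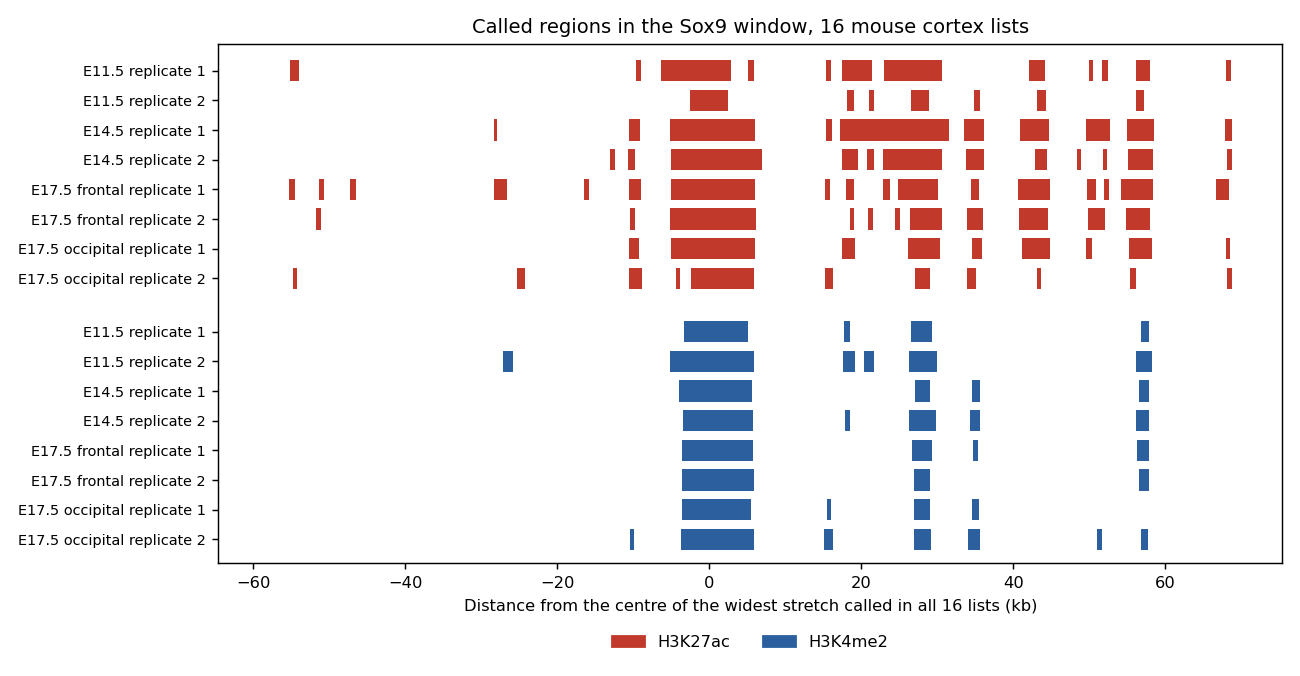
Called regions of the Sox9 window in each of the 16 mouse lists, as bars along the distance in kb from the centre of the widest stretch called in all 16 lists (red H3K27ac, blue H3K4me2). The stretch of 4875 bp at 0 and one of 1850 bp to its right are shared by all lists, and H3K27ac regions outnumber H3K4me2 regions in each pair of lists.

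The widest H3K4me2 region of the Sox9 window overlapped the 4875 bp stretch in all 8 lists. H3K4me2 covered 8450 and 11100 bp of this locus (chr11:112639376-112650475) at E11.5, 9675 and 9175 bp at E14.5, 9375 and 9350 bp in frontal cortex, and 9200 and 9550 bp in occipital cortex. Its lowest and highest values were both at E11.5. H3K27ac covered 9875 and 5025 bp of the corresponding locus (chr11:112638301-112651500) at E11.5, 11175 and 11950 bp at E14.5, 11100 and 11325 bp in frontal cortex, and 11075 and 8900 bp in occipital cortex. E11.5 replicate 2 was again the lowest list. Neither locus passed the test between E11.5 and E17.5 (limma, adjusted p = 0.217 for H3K27ac and 0.81 for H3K4me2).

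A further H3K27ac locus of the Sox9 window (chr11:112661826-112676125) held the shared stretch of 1850 bp. H3K27ac covered 11750 and 3900 bp of it at E11.5, 14300 and 10775 bp at E14.5, 7250 and 6075 bp in frontal cortex, and 5900 and 1925 bp in occipital cortex. At E14.5 both lists lay above all 4 E17.5 lists, and in E14.5 replicate 1 this was the widest region of the window. The difference of E17.5 from E14.5 was -1.35 on the log2 scale and did not pass (limma, adjusted p = 0.329). An H3K4me2 locus within it (chr11:112670851-112674550) covered 2050 to 3700 bp in the 8 lists. Another H3K4me2 locus within it (chr11:112662226-112663725) is described below with the stage calls.

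Over whole windows, the covered lengths of E17.5 overlapped those of the earlier stages in both marks. In the Sox2 window, H3K27ac covered 65925 and 37825 bp at E11.5, 82950 and 60175 bp at E14.5, 76601 and 70325 bp in E17.5 frontal cortex, and 73050 and 63825 bp in E17.5 occipital cortex. The lowest list was from E11.5 and the highest from E14.5. H3K4me2 covered 51200 and 64575 bp at E11.5, 45650 and 55525 bp at E14.5, 52075 and 49325 bp in frontal cortex, and 62125 and 74925 bp in occipital cortex. The frontal and occipital lists did not overlap.

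For the Sox9 window, H3K27ac covered 29950 and 11725 bp at E11.5, 42075 and 33375 bp at E14.5, 38075 and 29950 bp in frontal cortex, and 27850 and 18425 bp in occipital cortex. Both E14.5 lists lay above both E11.5 lists. H3K4me2 covered 12975 and 20925 bp at E11.5, 14050 and 16300 bp at E14.5, 14250 and 12925 bp in frontal cortex, and 12825 and 16700 bp in occipital cortex, with all tissues overlapping. Both windows were denser in called regions than the genome as a whole. The share of the window covered, over the share of the genome covered by the same list, was 4.29 to 7.56 for H3K27ac and 4.52 to 7.22 for H3K4me2 in the Sox2 window. The corresponding ratios were 2.69 to 6.62 and 1.94 to 4.06 in the Sox9 window.

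**Figure D3:**
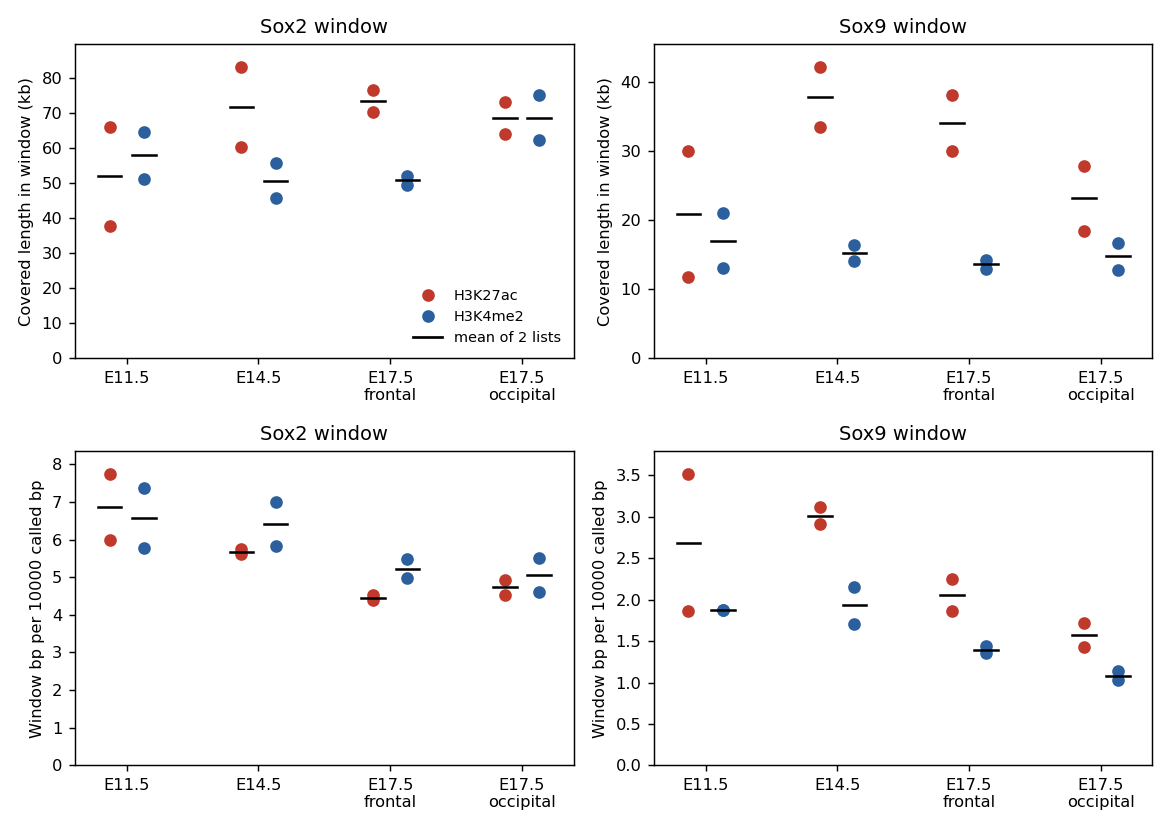
Covered length of each window in kb (upper row) and its share of the list's total called length, as bp per 10000 called bp (lower row), for the 2 lists of each tissue (points) and their mean (bars). Covered lengths of E17.5 overlap those of earlier stages, while the E17.5 shares lie below all earlier shares except for Sox9 H3K27ac.

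The stages were compared with limma on log2(covered bp + 1000), with the window as 1 tile among all genome tiles of its length. In covered bp as deposited, neither window passed an adjusted p of 0.05 in either mark in any of the 4 contrasts (E14.5 against E11.5, E17.5 against E11.5, E17.5 against E14.5, frontal against occipital), and none of these results had an unadjusted p under 0.05 (lowest 0.0656). For Sox2 H3K27ac the difference of E17.5 from E11.5 was 0.49 (SE 0.28, adjusted p = 0.202), with a median of 0.74 over all tiles, of which 40.9% passed. For Sox9 H3K27ac it was 0.53 (SE 0.38, adjusted p = 0.327), with a median of 0.62 over all tiles, of which 33.6% passed. Both values were below that of the median tile. Leaving out E11.5 replicate 2 gave 0.10 for Sox2 and -0.11 for Sox9, and leaving out E11.5 replicate 1 gave 0.89 and 1.17. With covered bp scaled to each list's total, 2 windows passed as lower at E17.5 than at E11.5. Sox2 H3K27ac stood at -0.56 (limma, adjusted p = 0.0242), where 38.1% of tiles passed and 20.2% passed as lower. Sox9 H3K4me2 stood at -0.57 (limma, adjusted p = 0.0227), where 12.9% of tiles passed and 4.31% passed as lower. Without scaling, the difference of E17.5 from E11.5 in H3K4me2 was 0.03 for Sox2 (limma, adjusted p = 0.938; 0.151% of tiles passed) and -0.21 for Sox9 (adjusted p = 0.644), where the median tiles stood at 0.32 and 0.28.

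The other contrasts of whole windows did not pass either. From E11.5 to E14.5 H3K27ac differed by 0.49 in the Sox2 window (adjusted p = 0.389, 9.21% of tiles passing) and by 0.96 in the Sox9 window (adjusted p = 0.243, 6.64% of tiles passing). Leaving out 1 list moved these to between 0.099 and 0.88 and between 0.31 and 1.60, the ends of both ranges coming from leaving out E11.5 replicate 2 and replicate 1. From E14.5 to E17.5 it differed by 0.0026 (adjusted p = 1) and by -0.42 (adjusted p = 0.633), where 1.84% and 1.68% of tiles passed. Frontal minus occipital H3K27ac was 0.10 in the Sox2 window (adjusted p = 1, median tile 0.11) and 0.55 in the Sox9 window (adjusted p = 1, median tile 0.093). For H3K4me2 it was -0.42 in the Sox2 window (adjusted p = 0.569, median tile -0.41) and -0.10 in the Sox9 window (adjusted p = 0.864, median tile -0.38).

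As a share of each list, the windows had lower means at E17.5 than earlier, without overlap except for Sox9 H3K27ac. Of every 10000 bp called for H3K27ac, the Sox2 window held 7.73 and 5.99 bp at E11.5, 5.74 and 5.62 bp at E14.5, and 4.39 to 4.94 bp in the 4 E17.5 lists. All E17.5 lists lay below all earlier ones, at 4.59 ± 0.239 (SD, n = 4) against 6.27 ± 0.985 (SD, n = 4; exact two-sided permutation p = 0.0286, adjusted over 4 tests 0.0381). For H3K4me2 the Sox2 window held 5.14 ± 0.428 bp at E17.5 against 6.50 ± 0.813 bp earlier, and the Sox9 window 1.24 ± 0.189 against 1.90 ± 0.182 bp, again without overlap and with the same exact permutation p (SD, n = 4 each). That p is the smallest that 70 splits can give. For Sox9 H3K27ac the shares at E17.5 and earlier were 1.82 ± 0.342 and 2.85 ± 0.706 (SD, n = 4 each) and overlapped, because E11.5 replicate 2 stood at 1.86 (exact permutation p = 0.0857, adjusted 0.0857). In bp, the same split of E17.5 from both earlier stages gave exact permutation adjusted p-values of 0.648 or more in all 4 tests. For shares at E17.5 against E11.5 alone (n = 4 against 2), none passed. The exact permutation p was 0.2 for Sox9 H3K27ac and otherwise 0.0667, the smallest that 15 splits can give. The total length of the lists moves with stage in these shares. A window of unchanged covered length holds a smaller share of a longer list, and this part was not tested. In the limma fits of scaled bp (E17.5 against E11.5), 20.2% of H3K27ac and 4.65% of H3K4me2 tiles of the Sox2 window's length passed as lower. For tiles of the Sox9 window's length these were 18% and 4.31%. No such share was computed for the permutation tests.

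An unequal change of the Sox2 and Sox9 windows was not detectable with these lists. The log2 ratio of Sox2 to Sox9 covered length was 1.36 ± 0.331 (SD, n = 4) at E17.5 and 1.16 ± 0.369 (SD, n = 4) earlier for H3K27ac (exact permutation p = 0.457). For H3K4me2 it was 2.06 ± 0.192 and 1.77 ± 0.153 (SD, n = 4 each; exact permutation p = 0.0857, adjusted over 2 marks 0.171).

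In most pairs of lists, called H3K27ac regions covered more of the Sox9 window than called H3K4me2 regions did. In 7 of 8 pairs of lists from the same tissue and replicate, H3K27ac covered more of it, by 13809 ± 12014 bp on average (SD, n = 8 pairs; exact two-sided sign-flip permutation p = 0.0234, adjusted over 2 windows 0.0469). E11.5 replicate 2 was the exception, with 11725 bp of H3K27ac and 20925 bp of H3K4me2. Leaving out any other pair raised the adjusted p to between 0.0625 and 0.0938 (exact permutation), and leaving out E11.5 replicate 2 gave 0.0312. Whole H3K27ac lists were also longer than their paired H3K4me2 lists, except in E11.5 replicate 2 and occipital replicate 2. With covered bp scaled to each list's total, the Sox9 difference was 8724 ± 6240 bp (SD, n = 8 pairs, exact permutation p = 0.0156, adjusted 0.0312). In the Sox2 window the difference in bp as deposited was 9410 ± 20431 bp, H3K27ac was longer in 6 of 8 pairs, and the test did not pass (exact permutation p = 0.242). This difference ranged from 5425 bp without E14.5 replicate 1 to 14575 bp without E11.5 replicate 2.

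H3K4me2 regions were mostly nested in H3K27ac regions. In the Sox2 window the share of H3K4me2 length that also carried H3K27ac ranged from 53.0% to 99.1% over the 8 pairs, with a median of 90.3%. In the Sox9 window it ranged from 47.2% to 100%, with a median of 97.7%, and it was 100% in both E14.5 and both frontal pairs. Over whole lists the range was 40.4% to 83.7% and the median 67.8%. The lowest values of both windows came from E11.5 replicate 2. In the reverse direction, a median of 73.3% of H3K27ac length carried H3K4me2 in the Sox2 window and 43.5% in the Sox9 window, beside 52.3% over whole lists. Median lengths with H3K27ac alone were similar in both windows, 18275 and 17050 bp, while 47363 and 12913 bp carried both marks.

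**Figure D4:**
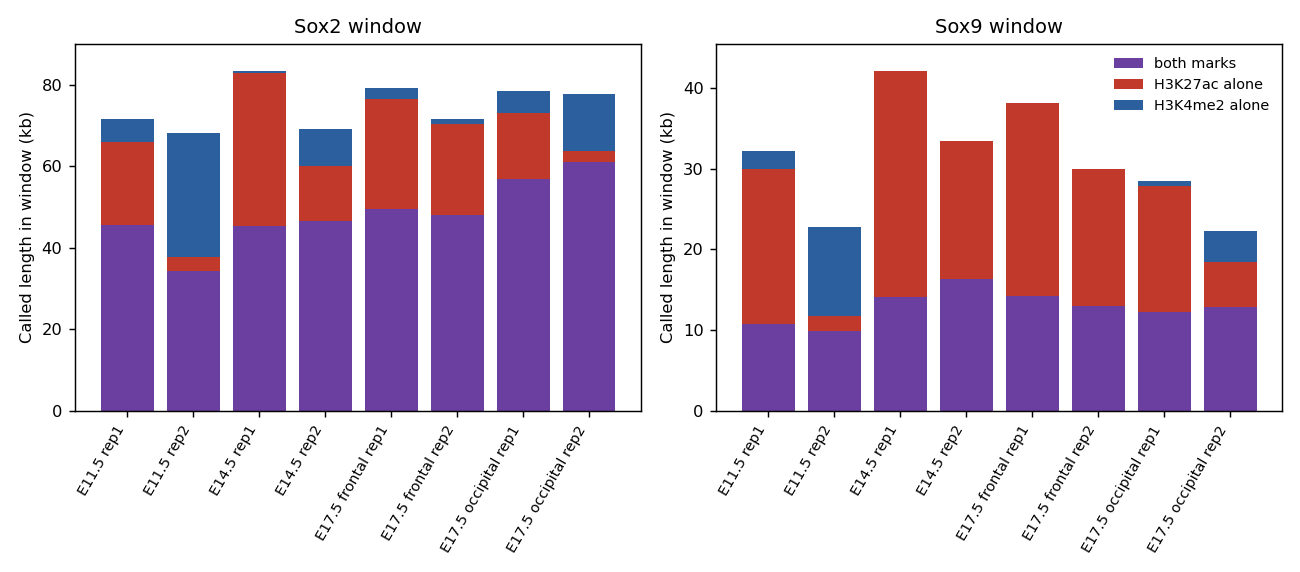
Called length in kb of the Sox2 and Sox9 windows with both marks, H3K27ac alone and H3K4me2 alone, for each of the 8 pairs of lists from a tissue and replicate (stacked bars). H3K4me2 alone is the smallest class in most pairs and is largest in E11.5 replicate 2, at 30350 bp for Sox2 and 11050 bp for Sox9.

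Around the domains the windows held smaller loci, defined by merging touching regions of the 8 lists of a mark and tested when present in at least 2 lists. H3K27ac had 20 tested loci in the Sox2 window (30 counting those in 1 list) and 12 in the Sox9 window (17), and H3K4me2 had 13 (15) and 6 (10). Of these, 5 and 4 H3K27ac loci and 5 and 2 H3K4me2 loci were present in all 8 lists of the mark. All 13 and all 6 tested H3K4me2 loci overlapped a tested H3K27ac locus, and 12 of 20 and 5 of 12 H3K27ac loci overlapped a tested H3K4me2 locus.

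**Figure D5:**
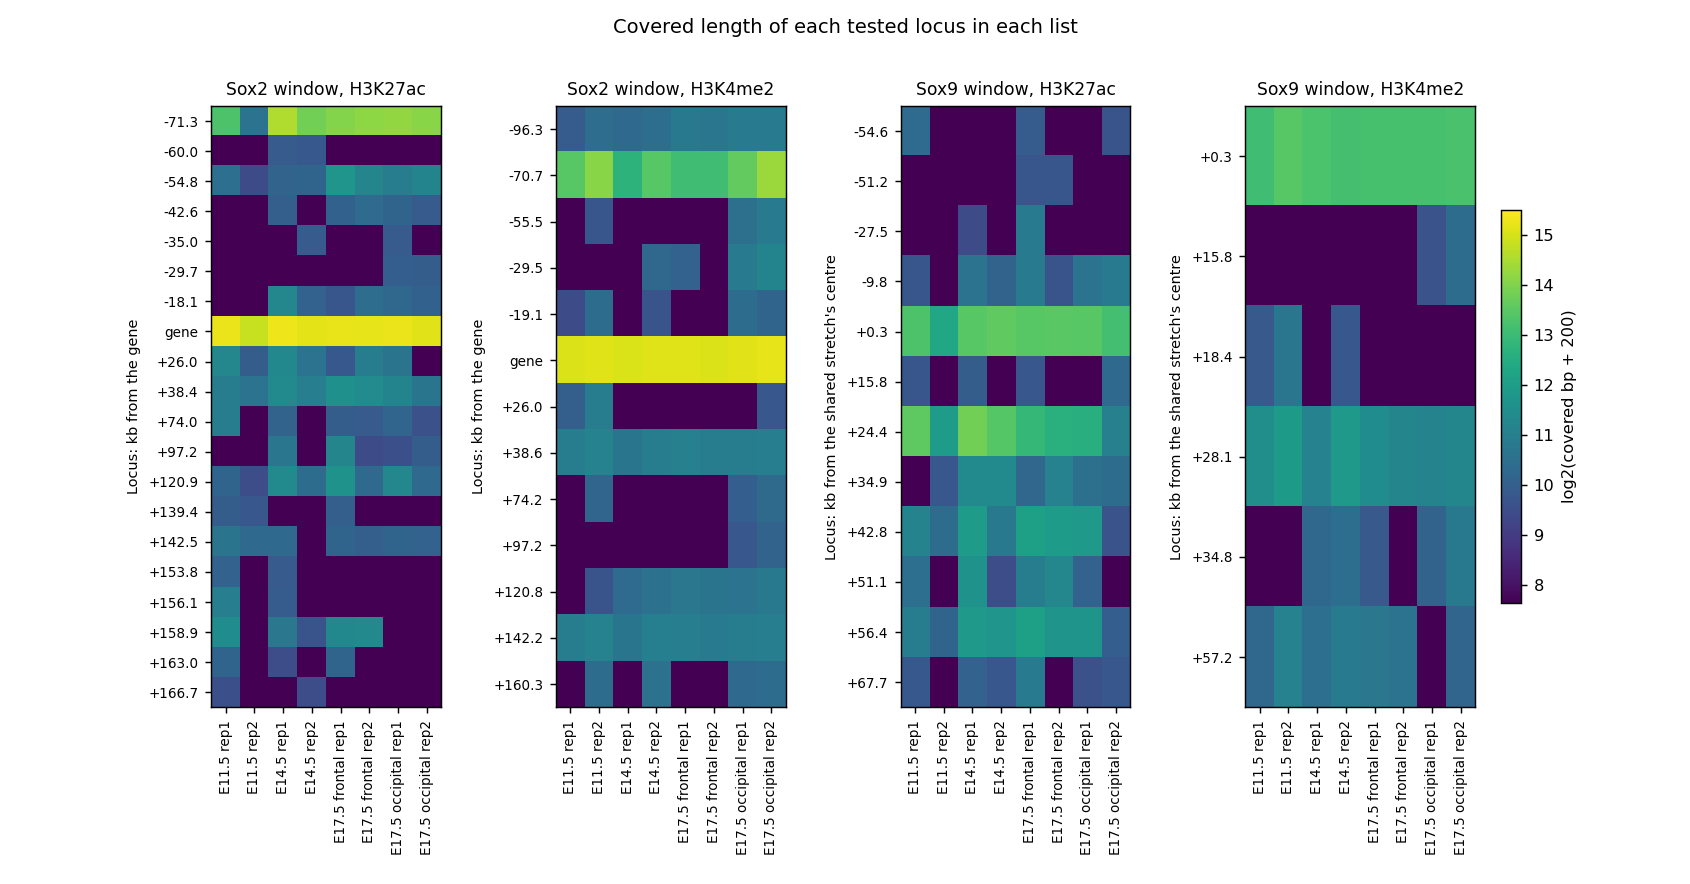
Covered length of each tested locus in each list as log2(covered bp + 200), with loci in rows by distance in kb and the 8 lists of a mark in columns (dark purple, not called). The domain over Sox2 and a few loci are present in all 8 lists of a mark, and most others are absent from some lists of a group.

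The widest distal locus of the Sox2 window lay at its far upstream end, its nearer edge 71.3 kb before the gene (chr3:34449626-34477700). H3K27ac covered 10000 and 1400 bp of it at E11.5, 23825 and 14275 bp at E14.5, 16775 and 18025 bp in frontal cortex, and 19100 and 17550 bp in occipital cortex. Both E11.5 lists lay below the other 6, and the difference of E17.5 from E11.5 was 2.16 on the log2(covered bp + 200) scale without passing (limma, adjusted p = 0.0993). H3K4me2 covered 6625 to 20125 bp of the corresponding locus (chr3:34457026-34478275) in the 8 lists, with 10950 and 17375 bp at E11.5.

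An H3K27ac locus 18.1 kb upstream of Sox2 (chr3:34528451-34530925) was longer in the lists of both later stages than in those of E11.5. It was not called in either E11.5 list, and covered 2275 and 900 bp at E14.5, 650 and 1200 bp in frontal cortex, and 1050 and 875 bp in occipital cortex. All 6 later lists held it. The difference from E11.5 was 3.04 at E14.5 (SE 0.56, limma adjusted p = 0.0317) and 2.49 at E17.5 (SE 0.48, limma adjusted p = 0.0213). The locus entered the fit only through lists of the later stages, and the E11.5 lists at 0 bp do not vary. These p-values are therefore a description and no test of a stage difference. Under the alternative settings the call was lost in 8 of 15 at E14.5 and in 6 of 15 at E17.5, with limma adjusted p-values of up to 0.296 and 0.449 and the same sign throughout. Leaving out either E11.5 list or occipital replicate 1 removed both calls, E14.5 replicate 1 or occipital replicate 2 removed the first, and frontal replicate 2 removed the last. The H3K4me2 locus there (chr3:34528451-34529850) had another pattern. It was called in both E11.5 lists, at 500 and 1175 bp, in E14.5 replicate 2 at 625 bp, in neither frontal list, and in both occipital lists at 1175 and 950 bp.

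Other H3K27ac loci absent from both E11.5 lists did not pass. One 42.6 kb upstream of Sox2 (chr3:34505176-34506350) was called in E14.5 replicate 1 at 850 bp and in all 4 E17.5 lists at 750 to 1150 bp (limma, adjusted p = 0.073 for E17.5 against E11.5). Another 97.2 kb downstream (chr3:34648626-34651475) was called in E14.5 replicate 1 at 1500 bp and in all 4 E17.5 lists at 500 to 2200 bp (adjusted p = 0.159). These 2 loci fall outside the rule for named loci and were chosen after their values were seen. In bp, 7275 of the Sox2 window and 4000 of the Sox9 window were called for H3K27ac in all 4 E17.5 lists and in no E11.5 list. These were 13.5% and 29.9% of the bp shared by all 4 E17.5 lists, beside 35.3% over whole lists. In neither window did both E11.5 lists hold a bp of H3K27ac that all E17.5 lists lacked, where over whole lists 4.55% of the bp shared by both E11.5 lists were of that kind.

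The remaining stage calls were few. In the Sox9 window, an H3K4me2 locus (chr11:112662226-112663725) was called at E11.5 and not at E17.5. It covered 725 and 1500 bp at E11.5 and 675 bp in E14.5 replicate 2, and was not called in E14.5 replicate 1 or in any E17.5 list (-2.65, SE 0.64, limma adjusted p = 0.0367 for E17.5 against E11.5). The locus entered the fit only through lists of E11.5 and E14.5, and the E17.5 lists at 0 bp do not vary. This p-value is therefore a description and no test of a stage difference. This call was lost on leaving out either E11.5 list or any of the 4 E17.5 lists (limma, adjusted p of up to 0.137).

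The 5 other loci past the threshold were each held by only 2 lists. Such a locus enters the fit only through the lists that hold it, and lists at 0 bp do not vary, so the filter sets its difference and its values are given as a description with no test. An H3K27ac locus 60 kb upstream of Sox2 (chr3:34488051-34489025) was called in the 2 E14.5 lists alone, at 750 and 700 bp. Occipital lists alone held an H3K27ac locus 29.7 kb upstream of Sox2 (chr3:34518251-34519325; 825 and 800 bp). They alone held an H3K4me2 locus 97.2 kb downstream of Sox2 (chr3:34648551-34649525; 675 and 925 bp) and an H3K4me2 locus of the Sox9 window (chr11:112659751-112660925; 600 and 1175 bp). Frontal lists alone held an H3K27ac locus of the Sox9 window (chr11:112592901-112593926; 650 and 650 bp).

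Counts of called loci include these 5, as do the shares over all loci given beside them. For H3K27ac, E14.5 against E11.5 called 2 of 20 Sox2 loci, where 7.48% of all 85290 loci were called, and E17.5 against E11.5 called 2 of 20 Sox2 loci and 1 of 12 Sox9 loci, where 19% were called. E17.5 against E14.5 called 1 of 20 Sox2 loci (1.13% of all), and frontal against occipital called 1 of 20 and 1 of 12 (2.31% of all). For H3K4me2, E17.5 against E11.5 called 1 of 13 Sox2 loci and 2 of 6 Sox9 loci, where 22.7% of all 63453 loci were called. E17.5 against E14.5 called 1 of 13 and 1 of 6 (13.6% of all), and frontal against occipital 1 of 13 and 1 of 6 (9.93% of all). Between E14.5 and E11.5 limma called 0 H3K4me2 loci of either window, where 3 had an unadjusted p under 0.05 and 3.94% of all loci were called. With so few loci, none of these shares was tested against the background.

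The median difference of E17.5 from E11.5 over the tested loci was 0.29 in the Sox2 window and 0.78 in the Sox9 window for H3K27ac, beside 1.01 over all H3K27ac loci. For H3K4me2 it was -0.0059 and -0.25, beside 0.37 over all H3K4me2 loci.

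H3K4me2 covered more of the Sox2 window in both occipital lists than in both frontal lists, without passing the window test above. In the Sox2 window 7975 of the 60900 bp shared by both occipital H3K4me2 lists (13.1%) were in neither frontal list, and 0 bp were frontal alone. Over whole lists 15756150 of 108486855 bp were occipital alone, and 1.51% of the bp shared by both frontal lists were frontal alone. For H3K27ac 4501 bp (6.89% of the bp shared by both frontal lists, 6.38% over whole lists) were frontal alone, and 1074 bp (1.86% of those shared by both occipital lists, 3.63% over whole lists) were occipital alone. An H3K4me2 locus 55.5 kb upstream (chr3:34491751-34493475) covered 1300 and 1675 bp in the occipital lists, 650 bp in E11.5 replicate 2 and 0 bp elsewhere (limma, adjusted p = 0.0563 for frontal against occipital). It was likewise chosen after its values were seen. The 2 occipital H3K4me2 lists were also the longer ones genome-wide, and the part of that in these values was not tested.

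Among the H3K4me2 loci present in all 8 lists, a locus 38.6 kb downstream of Sox2 (chr3:34590026-34592150) covered 1475 to 2025 bp, and one 142.2 kb downstream (chr3:34693626-34695675) covered 1475 to 2050 bp. The farthest upstream one (chr3:34450926-34452700) covered 775 and 1200 bp at E11.5, 1075 and 1225 bp at E14.5, and 1500 to 1725 bp in the 4 E17.5 lists, which all lay above the other 4. Its difference of E17.5 from E11.5 was 0.64 (limma, adjusted p = 0.0653), beside a median of 0.37 over all H3K4me2 loci. An H3K4me2 locus 120.8 kb downstream (chr3:34672201-34673800) was called in 7 lists, at 0 and 625 bp at E11.5, 1150 and 1325 bp at E14.5 and 1400 to 1600 bp at E17.5. Lists of each later stage lay above those of the stage before, and the difference of 2.06 between E11.5 and E17.5 did not pass (limma, adjusted p = 0.0555). Nearer the gene, one 26.0 kb downstream (chr3:34577351-34579325) covered 850 and 1825 bp at E11.5, 675 bp in occipital replicate 2 and 0 bp in the other 5 lists (-2.33, limma adjusted p = 0.0571).

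H3K27ac loci present in all 8 lists lay on both sides of Sox2. At 54.8 kb upstream of Sox2 (chr3:34490651-34494176) the E17.5 lists, at 1800 to 3250 bp, lay above the 4 earlier ones, at 500 to 1275 bp. The difference of E17.5 from E11.5 there was 1.29 (limma, adjusted p = 0.0548), beside a median of 1.01 over all H3K27ac loci. At 38.4 kb downstream (chr3:34589776-34592826) the range was 1375 to 2850 bp and the stages overlapped, as they did at 120.9 kb downstream (chr3:34672252-34675301), with 525 to 3050 bp. In the Sox9 window, chr11:112685252-112689451 covered 600 to 4200 bp and chr11:112698802-112703150 covered 825 to 4225 bp. Both were lowest in occipital replicate 2 and highest in frontal replicate 1, and neither passed in any contrast.

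The other loci named by size of change did not pass. H3K27ac at chr3:34690751-34692075 was called in both E11.5 lists at 800 and 675 bp and in frontal replicate 1 at 850 bp (limma, adjusted p = 0.17 for E17.5 against E11.5). Downstream of Sox2, chr3:34577426-34579775 covered 0 to 2350 bp and chr3:34707501-34709350 was called in replicate 1 of E11.5 and of E14.5, at 1850 and 775 bp. H3K4me2 at chr3:34517251-34519475, which overlaps the occipital H3K27ac locus 29.7 kb upstream, covered 1700 and 2125 bp in the occipital lists, 900 bp in frontal replicate 1, 1050 bp in E14.5 replicate 2 and 0 bp in the other 4. In the Sox9 window, H3K27ac at chr11:112589302-112590600 was called in 3 lists. H3K4me2 at chr11:112678576-112680176 was called in neither E11.5 list, in both E14.5 lists at 1050 and 1225 bp and in 3 of 4 E17.5 lists (adjusted p = 0.103). H3K4me2 at chr11:112700751-112702775 was called in 7 lists, at 975 to 2025 bp, and not in occipital replicate 1.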

How the data were processed

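Both histone marks were profiled by ChIP-seq in mouse embryonic cortex. The deposited values are start and end positions of called regions, without counts or scores. The submitters' processing notes name Bowtie 0.12.9, hg19 and mm9. The caller of the regions and its threshold are not given in the sources used. No mm9 genome or annotation was used, so related genes of radial glia were not analysed here, and Sox2's position is approximate. The labelled tissue could not be checked against marker levels.

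The 16 mouse lists were read with Python 3.11.15. Covered bp were summed per window, tile and locus, a locus being touching or overlapping regions merged over a mark's 8 lists and present in at least 2. limma 3.58.1 (trend) was fitted over all tiles on log2(covered bp + 1000) or all loci on log2(covered bp + 200), with 1 mean per tissue, and p-values were adjusted (Benjamini-Hochberg) over all tiles or loci. E17.5 is the mean of both areas. Distances are from a locus's nearer edge to the gene. Single values were tested by exact two-sided permutation. The limma script was also run on covered bp shuffled among lists, with changes added at E17.5. Shuffling removes the differences in list length, so that run did not test their effect. Lists of the 2 marks were paired by tissue and replicate because the series' design text says that they share an input. Deviations of same-numbered lists correlated across marks at r = -0.153 to 0.0302.

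Named loci were those overlapping Sox2, present in all 8 lists of a mark, past adjusted p 0.05, or among the 3 with the largest change between E11.5 and E17.5 in each direction. Members and lists were chosen with earlier results of these data known.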

Additional observations from a re-analysis of the deposited data

Results flagged for a closer look

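The widest H3K27ac region of the Sox9 window measured 11100 and 11325 bp in the frontal lists and 11075 and 8325 bp in the occipital lists of E17.5. Occipital replicate 2 stood apart at 8325 bp, with a gap to the next list of 0.917 of the whole range of 4 lists. In that list the locus was split, and a further region brought its covered length to 8900 bp. It was the only such case among 16 sets of 4 E17.5 values looked at. Chance would mark about 1 set in 20 for independent values of a single group, but each set mixes both areas. How often chance marks such a set here was not tested.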

How the results depend on the processing

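Covered bp scaled to the list total are the shares above times a constant for each mark. Their permutation tests of E17.5 against earlier stages are therefore the share tests given again. Scaling covered bp to the list total changed the whole-window values most. It moved the E17.5 minus earlier difference to -21403 bp (Sox2 H3K27ac, from 9232 bp), -13715 bp (Sox2 H3K4me2, from 5375 bp) and -6707 bp (Sox9 H3K4me2, from -1888 bp), each with an exact permutation adjusted p of 0.0381, and the Sox2 difference between marks to -4439 bp. In the tile fits it gave, for H3K27ac in the Sox2 window, -0.26 (E14.5 minus E11.5), -0.56 (E17.5 minus E11.5, limma adjusted p = 0.0242), -0.30 (E17.5 minus E14.5) and -0.084 (frontal minus occipital), and for Sox9 -0.49 (E17.5 minus E11.5). For H3K4me2 it gave -0.34 (E17.5 minus E11.5), -0.31 (E17.5 minus E14.5) and 0.048 (frontal minus occipital) in the Sox2 window, and 0.034 (E14.5 minus E11.5), -0.57 (E17.5 minus E11.5, adjusted p = 0.0227) and 0.34 (frontal minus occipital) in the Sox9 window. Of H3K27ac tiles of the Sox2 window's length called between E11.5 and E17.5, 3524 of 3572 were higher as deposited and 1561 of 3321 after scaling. The scaled calls were 38.1% of all such tiles, beside 12.9% of H3K4me2 tiles of the Sox9 window's length. An equal number of the widest regions gave -0.055 (Sox2 H3K27ac, E17.5 minus E14.5) and 0.18 (Sox9 H3K4me2, frontal minus occipital).

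Leaving out 1 list at a time, the E17.5 minus earlier difference of Sox9 H3K27ac ranged from -6558 to 3558 bp and the Sox9 difference between marks from 11779 to 17096 bp. Tile values that changed sign ranged from -0.23 to 0.23 (Sox2 H3K27ac, E17.5 minus E14.5), -0.13 to 0.20 (Sox2 H3K4me2, E17.5 minus E11.5) and -0.11 to 1.17 (Sox9 H3K27ac, E17.5 minus E11.5). For Sox9 H3K4me2 they ranged from -0.44 to 0.21 (E14.5 minus E11.5), -0.54 to 0.11 (E17.5 minus E11.5), -0.20 to 0.0046 (E17.5 minus E14.5) and -0.28 to 0.076 (frontal minus occipital). None of these sign changes involved a value that had passed the test.

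Loci called in both windows together, in the order E14.5 minus E11.5, E17.5 minus E11.5, E17.5 minus E14.5 and frontal minus occipital, numbered 2, 3, 1 and 2 for H3K27ac and 0, 3, 2 and 2 for H3K4me2. Leaving out 1 list gave 0 to 3, 0 to 4, 0 to 1 and 0 for H3K27ac, and 0 to 1, 0 to 5, 0 to 3 and 0 to 4 for H3K4me2. For H3K27ac a pseudocount of 1000 bp gave 1, 0, 0 and 0, loci in any list 1, 1, 0 and 0, merging across 1000 bp 1, 2, 0 and 1, the widest regions 1, 1, 0 and 0, loci in at least 3 lists 1, 2, 0 and 0, and scaling 2, 7, 0 and 0. For H3K4me2 the same settings gave 0, 4, 1 and 3, then 0, 0, 0 and 2, then 0, 3, 2 and 2, then 3, 4, 2 and 2, then 0 throughout, then 1, 6, 3 and 2. With scaling, E17.5 against E11.5 called 27.9% of all H3K27ac loci and 23.4% of all H3K4me2 loci. With the widest regions these shares were 18.8% and 22.9%, and E14.5 against E11.5 called 8.33% of all H3K4me2 loci. Shares for the remaining settings are not given here. A locus in only 2 lists gives no value with a minimum of 3 lists or on leaving out a list that holds it. The cause of these changes was not tested.

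Tissues share only replicate numbers (r of same-numbered lists -0.204 to 0.0986 for H3K27ac and -0.0432 to 0.242 for H3K4me2). With the replicate block the counts were 1, 2, 0 and 0 for H3K27ac and 0, 3, 2 and 2 for H3K4me2, and no window passed. Without pairing, the marks differed in the Sox9 window at an adjusted exact permutation p of 0.00684, an alternative chosen after seeing the data. The depth of the lists is unknown, so regions absent at the authors' threshold are not shown to lack the mark.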
